A study of Homo sapiens with 12 samples.

Results

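snoRNA host genes are transcribed mostly for what lies in their introns. When the introns are spliced out, small nucleolar RNAs (snoRNAs) are trimmed from them and stay in the nucleus, where box C/D snoRNAs guide the methylation and box H/ACA snoRNAs the pseudouridylation of ribosomal RNA, and the related scaRNAs guide the same changes in spliceosomal RNAs. The joined exons of many host genes make a spliced non-coding RNA that reaches the cytoplasm, where several of these RNAs are known to be degraded by nonsense-mediated decay, the pathway that removes RNAs with an early stop codon. Many host genes begin, like ribosomal protein genes, with a C followed by a stretch of pyrimidines (the 5′ terminal oligopyrimidine, or TOP, sequence), which links their RNA to growth signals.

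The genes described here are those with a symbol made of SNHG and a number, with GAS5 and EPB41L4A-AS1 added, that had a mean of at least 10 counts over the 12 libraries. Of 30 such symbols, 27 met the minimum, out of 61860 genes in the table, and 25 had a mean count of at least 100. SNHG14, SNHG18 and SNHG27 fell under it. The 27 genes have 714 annotated transcripts, 400 of them with a mean count of at least 10, and they took between 0.163% and 0.225% of a library's counts. RefSeq places 63 snoRNAs and scaRNAs inside them, 34 named as box C/D (SNORD), 22 as box H/ACA (SNORA), 4 as scaRNAs and 3 without a name, from 48 to 421 bases long. GAS5 holds 11 of them, SNHG1 9, SNHG17 5 and SNHG12 4, while 14 genes hold 1 each. As RefSeq bounds them, all but SNORA50C in SNHG25 and SCARNA17 in SNHG22 lie in an intron of some transcript.

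RNA was sequenced from HEK293 Flp-In T-REx cells, an embryonic kidney line with a site for inserting a doxycycline-inducible gene. In both lines used, doxycycline at 1 µg/ml for 6 days induced miRNAs that deplete the endogenous coactivator PGC-1α together with a miRNA-resistant PGC-1α, full length in WT-res and without its RS domain, a stretch rich in arginine and serine, in ΔRS-res. Each line is 1 selected clone and the replicates are consecutive passages, so clone and deletion cannot be told apart and p-values measure the spread between passages. Each line gave 3 whole-cell libraries, from a single well, and 3 cytoplasmic libraries, from pooled wells. Totals were 90333190 to 144628005 counts per library. All libraries were depleted of ribosomal RNA and read from inserts longer than most snoRNAs, so the host RNAs were well covered and the short snoRNAs poorly.

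The fractions differed in their marker RNAs. The nuclear RNAs NEAT1, KCNQ1OT1 and MALAT1 were lower in the cytoplasm, by log2 ratios of -1.51, -1.72 and -0.56, and EEF1A1, GAPDH and RPLP0, 3 of 4 mRNAs taken as cytoplasmic markers, were higher there by 0.40 to 0.48. ACTB had 0.28 with an adjusted p of 0.0939. Within each line MALAT1 did not pass, with -0.70 (adjusted p = 0.0701) in WT-res and -0.41 (adjusted p = 0.292) in ΔRS-res. In WT-res replicate 1 its level was higher in the cytoplasm. These values and all following log2 ratios come from the quasi-likelihood test of edgeR. The p-values were adjusted over all genes tested (Benjamini-Hochberg), with a call at an adjusted p under 0.05. The HEK293 markers VIM, KRT18, PAX2, LHX1 and NEFM had mean counts from 48.6 (NEFM) to 105000 (VIM), while CD3E, PTPRC, ALB and PECAM1, genes of T cells, leukocytes, hepatocytes and endothelium, had mean counts of 0.667, 1.5, 8.0 and 8.08.

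One library went against its label. It is the third whole-cell library labelled as WT-res (replicate 3). Its DDX19B level was 0.195 CPM (counts scaled by TMM to a common library size), against 12.1 to 15.2 in the other WT-res libraries and 0.219 to 0.35 in ΔRS-res, and SDHA had 328 CPM, against 68.0 to 77.2 and 326 to 382. Both values lie with those of ΔRS-res. Of 44 genes with a mean count of at least 100 in which all the other libraries separated the lines at least 2-fold, this library lay with ΔRS-res in 37, with WT-res in 0 and between the lines in 7. The picture was mixed for smaller differences. Of 276 such genes separated at least 1.5-fold by the other whole-cell libraries alone, it lay with ΔRS-res in 167, with WT-res in 10 and between in 99, and its SNHG1 (115.5 CPM) and SNHG31 (0.750 CPM) levels lay near or above those of the other WT-res whole-cell libraries. Both counts were chosen after the values had been seen. The line comparison of the genes in whole-cell RNA is therefore given with and without it. In addition, the study kept only 4 of the 6 cytoplasmic libraries for its line comparison (WT-res 1 and 3, ΔRS-res 1 and 2), and the line comparison in the cytoplasm is given for both sets.

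The guide RNAs inside the introns can be seen from 3 box C/D snoRNAs, shown because their hosts GAS5, SNHG5 and SNHG29 are among the most abundant host genes per length. Each is written 5′ to 3′ from hg38, with the C box (TGATGA) and the D box (CTGA), the short elements that bind the core proteins, in capitals.
SNORD44 (GAS5, chr1:173865968-173866028, minus strand): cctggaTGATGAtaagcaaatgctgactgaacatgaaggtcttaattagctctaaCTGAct
SNORD50B (SNHG5, chr6:85677589-85677659, minus strand): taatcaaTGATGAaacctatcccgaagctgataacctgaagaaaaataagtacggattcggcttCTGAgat
SNORD65 (SNHG29, chr17:16441226-16441298, plus strand): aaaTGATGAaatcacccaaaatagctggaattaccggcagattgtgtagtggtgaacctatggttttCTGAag
In all 3 the boxes sit near the ends, where the trimmed RNA is closed by the proteins.

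The starts of the host genes are shown because a TOP start is the sequence feature this family is known for. Each line holds 40 bases, 15 before and 25 from the start given by RefSeq (GRCh38.p14), with capitals from the first C within 10 bases of the start, on the gene's own strand, from which at least 5 bases in a row are C or T. In SNHG29 the pyrimidines go on before those 10 bases, and the capitals mark only the part inside them.
SNHG16 (chr17:76557749-76557788, plus strand): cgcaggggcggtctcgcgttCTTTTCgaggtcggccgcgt
SNHG29 (chr17:16438972-16439011, plus strand): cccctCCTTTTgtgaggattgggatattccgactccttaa
SNHG32 (chr6:31834901-31834940, plus strand): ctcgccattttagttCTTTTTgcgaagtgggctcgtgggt
SNHG5 (chr6:85678709-85678748, minus strand): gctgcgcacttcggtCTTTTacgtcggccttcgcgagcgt
SNHG12 (chr1:28581849-28581888, minus strand): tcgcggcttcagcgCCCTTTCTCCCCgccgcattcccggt
SNHG22 (chr18:49814008-49814047, plus strand): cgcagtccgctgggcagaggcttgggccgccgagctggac
In SNHG5 and SNHG32 the run opens exactly at the start, in SNHG12 the run of 12 bases opens 1 base before it, and SNHG22 has none in this window. Such a run was found for 13 of the 23 host genes in the RefSeq table (56.5%), against 33.5% of all 35116 promoters of the table. From the start of each gene's most abundant transcript the counts were 10 of 27 (37.0%), against 34.1% of 4338 lncRNA genes. Of all genes with a mean count of at least 10, 31.9% had a run at that start. A run was counted even where it ended before the start, as in SNHG4, SNHG7, SNHG19 and SNHG29 by RefSeq. None of these shares is therefore a share of TOP starts. The counts differ in the start used, but also in the genes covered and in the background. For GAS5 the start made the difference, since its RefSeq start has no such run and the start of its most abundant transcript, ENST00000689238, has one. SNHG6, SNHG9, SNHG15 and SNHG25 had no entry in the RefSeq table of starts used here.

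On the TPM scale, on which each transcript's count is divided by its length and each library scaled to one total so that genes can be compared, SNHG29 had the highest mean level in WT-res whole cells (580 TPM), followed by SNHG5 (332), GAS5 (327), SNHG16 (186) and SNHG32 (168). The levels of SNHG5 and GAS5 lie within the spread of their replicates. SNHG28 (0.326) and SNHG31 (0.415) were lowest. GAS5 holds 10 box C/D snoRNAs and SNORA103, named as box H/ACA. The guides of the other 4 are SNORD49A, SNORD49B and SNORD65 in SNHG29, SNORD50A and SNORD50B in SNHG5, SNORD1A to SNORD1C in SNHG16, and SNORD48 and SNORD52 in SNHG32.

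The first question was how each host RNA was distributed between the cytoplasm and the whole cell. The answer differed widely from host to host. Over both lines 5 of the 27 genes were higher in the cytoplasmic libraries (SNHG16, SNHG29, SNHG31, SNHG5 and SNHG7) and 13 were lower (SNHG1, SNHG3, SNHG4, SNHG10, SNHG11, SNHG12, SNHG15, SNHG17, SNHG19, SNHG20, SNHG22, SNHG25 and SNHG26). Of 26686 genes tested, 23.7% were higher and 31.3% lower. With libraries scaled to their total counts, without TMM, the split was 2 higher and 14 lower, against 17.8% and 34.1% of all genes, with SNHG5, SNHG7 and SNHG29 no longer called and SNHG8 added to the lower genes. The median log2 ratio of the 27 genes was -0.30, against -0.06 over all genes tested, -0.51 over 4338 lncRNA genes with a mean count of at least 10, and 0.15 over 14718 such protein-coding genes. Since all libraries are scaled to a common total, a lower ratio cannot be told apart from a larger rise of other RNAs in that fraction.

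**Figure D1:**
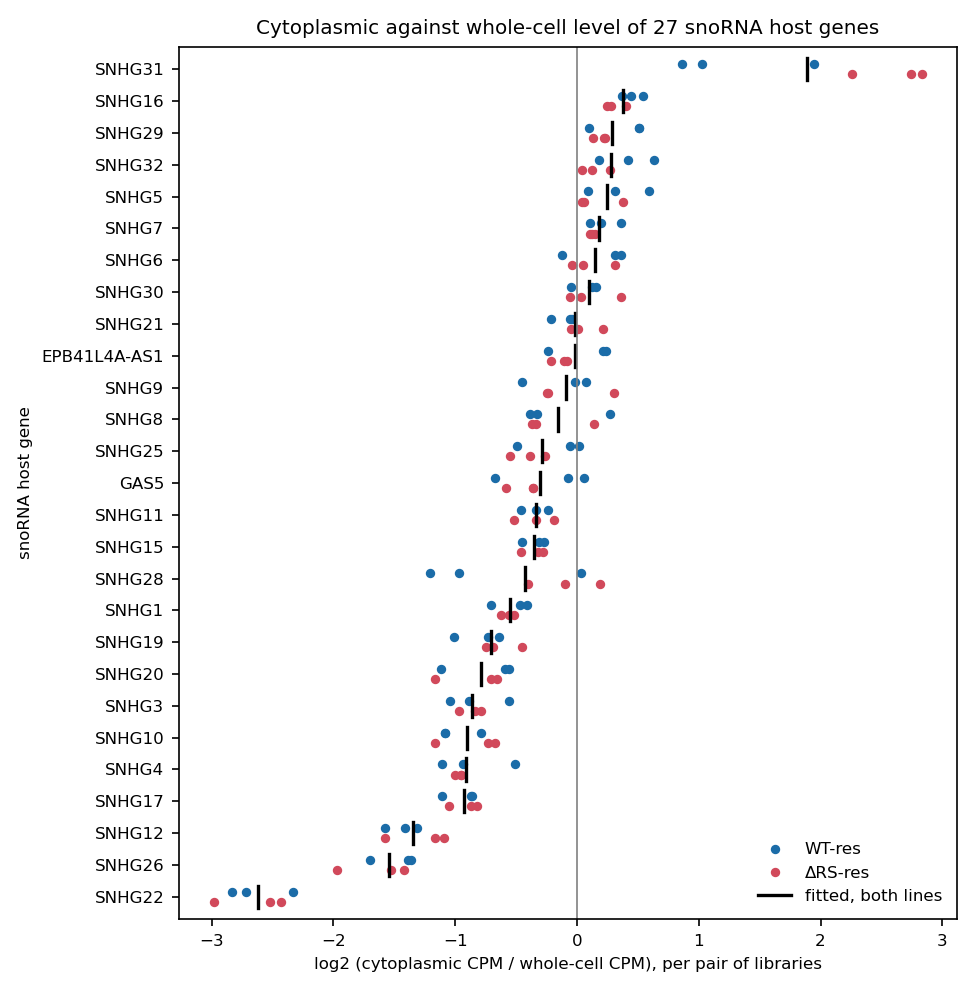
Log2 ratio of cytoplasmic to whole-cell CPM (x axis) for each of the 27 snoRNA host genes (y axis), with 1 point for each pair of libraries of the same line and replicate number (blue WT-res, red ΔRS-res) and a black bar for the fitted ratio over both lines. The fitted ratios run from -2.62 for SNHG22 to 1.89 for SNHG31, and 12 genes have all 6 points below 0 while 6 have all above. The share of all genes with all 6 points on the same side of 0 is not given.

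SNHG22 stood lowest. It holds SCARNA17, a guide RNA of the Cajal body, the nuclear body where spliceosomal RNAs are modified. Its whole-cell levels were 25.3, 21.6 and 23.7 CPM in WT-res and 22.4, 20.7 and 21.6 in ΔRS-res. In the cytoplasm they were 3.85, 4.31 and 3.32 in WT-res and 3.89, 3.85 and 2.73 in ΔRS-res. Every cytoplasmic value was far below every whole-cell value, with a fitted log2 ratio of -2.62 (SE 0.104, adjusted p = 1.08e-09), 6.17-fold lower. Almost all of its counts (99.7%) came from ENST00000615535, a single exon of 490 bases at chr18:49813965-49814454 that contains the 421 bases of SCARNA17 (chr18:49814023-49814443). These counts cannot separate the scaRNA from the host RNA around it.

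SNHG26, which holds SNORD93, had whole-cell levels of 15.4, 15.7 and 11.8 CPM in WT-res and 12.6, 12.6 and 10.5 in ΔRS-res, and cytoplasmic levels of 4.73, 5.98 and 4.59 and of 4.71, 4.36 and 2.68. The fractions did not overlap, and the log2 ratio was -1.54 (SE 0.144, adjusted p = 2.59e-06). SNHG12, host of SNORA16A, SNORA44, SNORA61 and SNORD99, had 31.2, 31.5 and 25.2 CPM in WT-res whole cells, 26.7, 26.6 and 23.2 in ΔRS-res, then 10.5, 11.8 and 10.1 and 12.5, 11.8 and 7.74 in the cytoplasm. Its log2 ratio was -1.35 (SE 0.116, adjusted p = 1.27e-06). Again no cytoplasmic library reached the lowest whole-cell library.

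SNHG17, host of the SNORA71 family of box H/ACA snoRNAs, was abundant in whole cells, with 172.7, 159.7 and 127.1 CPM in WT-res and 164.0, 157.5 and 133.3 in ΔRS-res. In the cytoplasm it had 79.9, 88.1 and 69.6 CPM, and 89.5, 89.2 and 64.4, with a log2 ratio of -0.93 (SE 0.107, adjusted p = 1.54e-05). Ratios between -0.91 and -0.71 were found for SNHG4, host of SNORA74A, SNHG10, host of SCARNA13, SNHG3, host of SNORA73A and SNORA73B, which act in the cleavage of the ribosomal RNA precursor, SNHG20, host of SCARNA16, and SNHG19, host of SNORD60. All 5 passed the test. Of the 27 hosts, 9 overlap another annotated gene on the same strand, SNHG4, SNHG3, SNHG20 and SNHG31 with MATR3, RCC1, SEC14L1 and RPL10P6 among them, so counts may be split between them. A further overlap on the opposite strand was found for 16, and since the strand setting of the counting is not given, reads of such partners may not be separated. MATR3 itself went the other way, with a log2 ratio of 1.41 (SE 0.0574).

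SNHG1, the host of SNORD22 and of SNORD25 to SNORD31, had 117.1, 116.8 and 115.5 CPM in WT-res whole cells and 86.7, 85.7 and 94.8 in ΔRS-res. Its cytoplasmic levels were 84.8, 71.4 and 86.8 CPM in WT-res and 58.8, 59.8 and 61.9 in ΔRS-res. It was lower in the cytoplasm of each line, with a log2 ratio of -0.55 (SE 0.0551, adjusted p = 5.16e-06), although the cytoplasm of WT-res and the whole cells of ΔRS-res overlapped. SNHG15, SNHG11 and SNHG25 were lower by smaller amounts (log2 ratios of -0.35, -0.34 and -0.29). The call of SNHG25 was lost in 8 of the 12 fits that leave out 1 library.

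GAS5 is known to accumulate when growth stops and translation is blocked. It had 200.6, 201.3 and 253.8 CPM in WT-res whole cells, 154.4, 149.7 and 222.4 in ΔRS-res whole cells, 208.8, 126.2 and 242.6 in WT-res cytoplasm and 103.2, 116.7 and 173.6 in ΔRS-res cytoplasm. The fractions overlapped in both lines and replicates differed widely. Its log2 ratio was -0.30 (SE 0.178, adjusted p = 0.172). With the replicate as a block, which pairs the fractions of a replicate, the log2 ratio of GAS5 was -0.33 with an adjusted p of 0.00985.

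At the other end, SNHG16 had 313.5, 310.2 and 291.8 CPM in WT-res whole cells, 309.9, 306.2 and 320.0 in ΔRS-res whole cells, and in the cytoplasm 425.2, 400.0 and 424.6 and 369.2, 372.7 and 422.1. Every cytoplasmic library exceeded every whole-cell library, with a log2 ratio of 0.38 (SE 0.0483, adjusted p = 3.25e-05). SNHG29 had whole-cell levels of 458.2, 457.5 and 456.2 CPM in WT-res and of 375.5, 352.9 and 459.3 in ΔRS-res, and cytoplasmic levels of 652.5, 489.7 and 651.1 and of 412.0, 412.0 and 539.1. It was higher in the cytoplasm in all 6 pairs, by a log2 ratio of 0.29 (SE 0.0983, adjusted p = 0.0241), but the call was lost in 5 of the 12 fits without 1 library.

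SNHG5 had 152.5, 156.4 and 158.7 CPM in WT-res whole cells and 118.6, 114.7 and 140.6 in ΔRS-res, then 188.9, 165.9 and 238.4 and 122.0, 149.1 and 146.6 in the cytoplasm. Its log2 ratio of 0.25 (SE 0.0907, adjusted p = 0.0332) was also above 0 in all 6 pairs, and the call was lost in 7 of the 12 fits without 1 library. SNHG32 had 90.4, 85.8 and 122.5 CPM in WT-res whole cells, 86.1, 81.1 and 128.4 in ΔRS-res whole cells, 139.6, 97.1 and 163.8 in WT-res cytoplasm and 93.3, 97.9 and 132.0 in ΔRS-res cytoplasm. Replicate 3 was high in every group. The log2 ratio of SNHG32 was 0.28 (SE 0.161, adjusted p = 0.168), and 0.28 with an adjusted p of 0.00366 with the block. With the block the 27 genes gave 6 higher and 14 lower calls, GAS5 and SNHG32 being the additions, where that fit called 27.6% of all genes higher and 33.0% lower.

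SNHG31 had the highest ratio but very low counts. It had 0.361, 0.692 and 0.750 CPM in WT-res whole cells, 0.137, 0.176 and 0.223 in ΔRS-res whole cells, 1.40, 1.42 and 1.36 in WT-res cytoplasm and 0.914, 1.26 and 1.07 in ΔRS-res cytoplasm. The fractions did not overlap, and the log2 ratio was 1.89 (SE 0.19, adjusted p = 4.94e-06). SNHG7, host of SNORA17A and SNORA17B, was higher by 0.18 (SE 0.0444, adjusted p = 0.00507). The remaining hosts, SNHG6, SNHG30, SNHG21, EPB41L4A-AS1, SNHG9, SNHG8 and SNHG28, had log2 ratios between -0.43 and 0.15 that did not pass the test, though SNHG8 did with total-count scaling (-0.25, adjusted p = 0.0464). Those of EPB41L4A-AS1 and SNHG21 were -0.02 and turned to 0.05 with DESeq2's size factors.

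Compared library by library, 2 genes (SNHG16 and SNHG31) had all cytoplasmic libraries above all whole-cell libraries and 10 had all below, where 12.6% and 21.0% of all genes did. By the threshold of the study, an unadjusted p under 0.05 with a log2 change over 0.5, 1 gene was higher (SNHG31) and 10 were lower, against 7.71% and 29.6% of all genes. In WT-res alone 5 were higher and 12 lower, against 16.9% and 24.8% of all genes, and with total-count scaling 2 and 12, against 11.3% and 26.5%. By the study's threshold WT-res had 1 higher and 10 lower, against 6.05% and 26.3%. In ΔRS-res alone 2 were higher (SNHG16 and SNHG31) and 12 lower, against 16.6% and 24.3%. Without the library that goes against its label, 5 genes were higher and 12 lower over both lines, against 24.8% and 30.6% of all genes, and 3 and 11 in WT-res, against 17.8% and 23.1%.

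No host gene was called for a different cytoplasmic ratio in the 2 lines. The test of that difference, the interaction of fraction and line, called 0 of 27 genes with edgeR and 0 of 15 with an adjusted p from DESeq2, and 1 had an unadjusted p under 0.05, as did 5.52% of all genes. Of all genes edgeR called 0.0% higher and 0.00375% lower, and DESeq2 0.0% of the 7542 with an adjusted p in each direction. The 1 gene was SNHG31, with a log2 difference of 1.38 (SE 0.376, adjusted p = 0.702), which alone passed the study's threshold (2.96% of all genes above and 0.918% below). It was called in 1 of the 12 fits that leave out 1 library: without WT-res whole-cell replicate 1 its difference was 1.63 with an adjusted p of 0.0209, a fit that called 1.63% of all genes higher and 0.0112% lower. Without the library that goes against its label the difference of SNHG31 was 1.20 (adjusted p = 0.889), and with the replicate block 1.35 (adjusted p = 0.249).

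Other genes that hold snoRNAs in their introns gave the background for these ratios. Of 248 protein-coding hosts, 134 were higher in the cytoplasm and 44 lower (54.0% and 17.7%), with a median log2 ratio of 0.24. Of all protein-coding genes with a mean count of at least 10, 38.6% were higher and 25.5% lower. FILIP1 (1.73) and MATR3 (1.41) were highest and LAMB1 (-2.55) and POR (-2.45) lowest. Of 16 other lncRNA hosts, 0 were higher and 4 lower by edgeR, against 4.98% and 49.4% of all lncRNA genes of that count, with a median of -0.16. RAB33B-AS1 (-1.41) and OXA1L-DT (-1.08) were lowest, and ZFAS1, a host with a TOP start, had 0.29 with an adjusted p of 0.111. The SNHG group thus had calls in both directions, as did the protein-coding hosts, and its median lay between those of protein-coding and of all lncRNA genes.

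The transcripts of the host genes differed by type. Of 400 host transcripts, 80 were higher in the cytoplasm and 115 lower, where 15.3% and 22.5% of all 130376 transcripts tested were. Among the 48 annotated as retained intron, transcripts that keep an intron the other forms splice out, 0 were higher and 35 lower, with a median log2 ratio of -2.10. Among the 352 of other types, 80 were higher and 80 lower (22.7% each), with a median of 0.34, against 24.5% higher and 19.0% lower of 76219 transcripts of other types in the whole table, with a median of 0.24. Retained-intron transcripts of the whole table showed the same direction with a smaller median, -1.15 over 19042 transcripts, of which 60.8% were lower and 3.42% higher.

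The snoRNAs themselves draw a similar line, in a split chosen after the values had been seen. In 122 host transcripts an exon contained at least 1 whole snoRNA, which in all but ENST00000582965 (SNHG25) and ENST00000615535 (SNHG22) lies in an intron of another form. Of these, 2 were higher in the cytoplasm and 71 lower, where 15.3% and 22.5% of all transcripts were, with a median log2 ratio of -1.79. In the 278 transcripts whose exons contain no snoRNA, 78 were higher and 44 lower, with a median of 0.57. The difference was also present outside the annotated retained-intron class, where 85 transcripts with a snoRNA in an exon had a median of -1.43 and 267 without had one of 0.59. These classes passed the same minimum count over both fractions together, so their counts and medians carry the same limit.

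**Figure D2:**
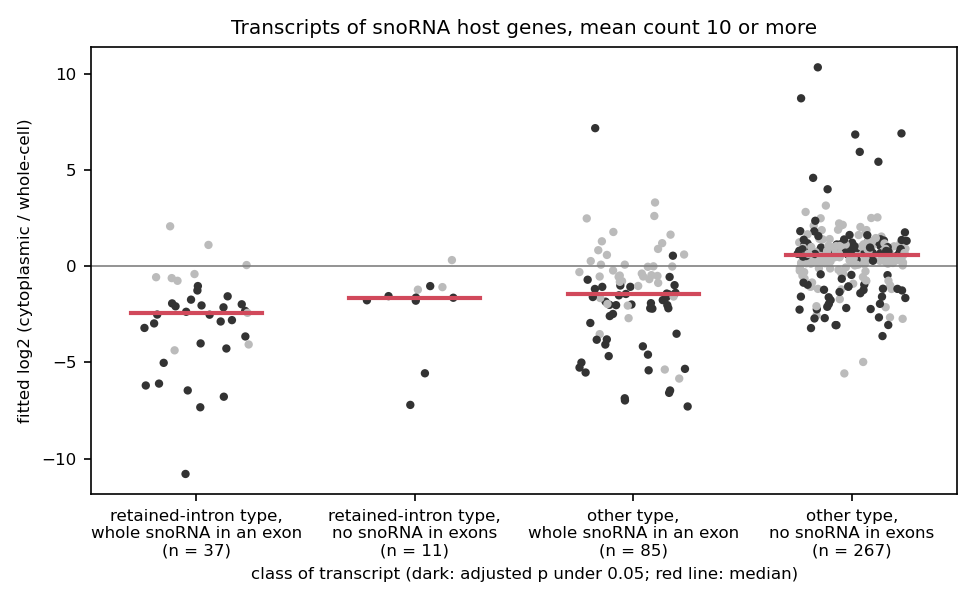
Fitted log2 ratio of cytoplasmic to whole-cell level (y axis) of the 400 host transcripts, in 4 classes by annotated type and by whether an exon contains a whole snoRNA (x axis), each point 1 transcript (dark with an adjusted p under 0.05) and each red line the class median. Transcripts with fewer than 3 counts over the 6 libraries of a fraction (9 in the cytoplasm, 5 in whole cells) are drawn at the value that 3 counts would give, and the 3 classes with a retained intron or a snoRNA have medians between -2.42 and -1.43 while the last has 0.59. The minimum count was a mean over both fractions, so forms abundant in whole cells alone could pass it.

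The types also differed within single genes. For 12 host genes the most abundant retained-intron transcript could be set against the most abundant other transcript, and in 10 of them the retained-intron form had the lower ratio. In SNHG10 and SNHG11 that form met the minimum count only through whole cells, so these genes add no weight to this count. In GAS5, ENST00000650796, a form of 2 exons and 3145 bases with 10 of the 11 snoRNAs inside its exons, had 24.9, 25.9 and 23.5 CPM in WT-res whole cells and 18.8, 17.3 and 15.5 in ΔRS-res, against 3.42, 4.01 and 2.40 and 2.36, 3.32 and 1.65 in the cytoplasm. The spliced ENST00000689238, with 12 exons in 607 bases, had 36.0, 37.9 and 53.9 CPM in WT-res whole cells and 31.9, 29.9 and 54.5 in ΔRS-res, against 83.0, 50.0 and 103.0 and 40.1, 44.9 and 71.0 in the cytoplasm. The 2 forms went opposite ways, with log2 ratios of -2.87 (SE 0.18, adjusted p = 1.46e-06) and 0.66 (SE 0.232, adjusted p = 0.047), while the whole gene had -0.30.

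SNHG29 showed the same with higher counts. Its retained-intron form ENST00000497774, with 2 of its snoRNAs inside exons, had 63.6, 68.1 and 50.5 CPM in WT-res whole cells and 48.3, 43.4 and 50.0 in ΔRS-res, against 4.84, 6.01 and 3.67 and 3.67, 4.44 and 3.24 in the cytoplasm, a log2 ratio of -3.65 (SE 0.143). Its main spliced form ENST00000660020 had 69.4, 69.3 and 75.5 CPM and 67.7, 66.8 and 82.3 in whole cells, against 148.0, 115.0 and 153.0 and 97.6, 97.0 and 136.0 in the cytoplasm, a log2 ratio of 0.78 (SE 0.109). The spliced form was the higher of the 2 in all whole-cell libraries, and in the cytoplasm it had all but a small part of their sum.

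In SNHG1 the form ENST00000656268, whose 2 exons span all 9 snoRNAs though it is not annotated as a retained intron, had 28.3, 26.6 and 24.3 CPM in WT-res whole cells, 17.5, 19.0 and 18.5 in ΔRS-res, and 1.22, 3.67 and 2.18 and 2.72, 0.0202 and 0.46 in the cytoplasm (log2 ratio -3.80, SE 0.709). Its estimates in the cytoplasm varied more between replicates than those of any form above. The 10-exon form ENST00000686500 had a log2 ratio of 0.72 (SE 0.219). In SNHG5 the ratios were -2.03 for ENST00000656092 and 0.61 for ENST00000669678, in SNHG6 -2.97 and 0.59, in SNHG16 -1.25 and 0.65, in SNHG12 -2.08 and 0.93, and in SNHG3 -1.02 and -0.44. In SNHG11 the retained-intron form ENST00000670898 had 0.239 to 0.875 CPM in the 6 whole-cell libraries and was at 0 in all cytoplasmic libraries, at least 148-fold lower (against 3 counts over the 6 libraries), while its other form had a log2 ratio of 0.05.

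SNHG17 and SNHG26 were the exceptions. In both, the other form was also low in the cytoplasm, with log2 ratios of -1.41 against -1.02 for the retained-intron form in SNHG17, and of -1.57 against -1.55 in SNHG26. In SNHG17 it is this other form, ENST00000659400, that contains a snoRNA in an exon (SNORA71C), while the retained-intron form contains none. SNHG10 had -1.62 and 0.34, but its retained-intron form met the minimum count only through whole cells, and no conclusion is drawn from it. The other form of SNHG10 did not pass the test (adjusted p = 0.0958). RSEM divides reads among overlapping forms by estimate, so the counts of forms that differ by an intron depend on each other.

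**Figure D3:**
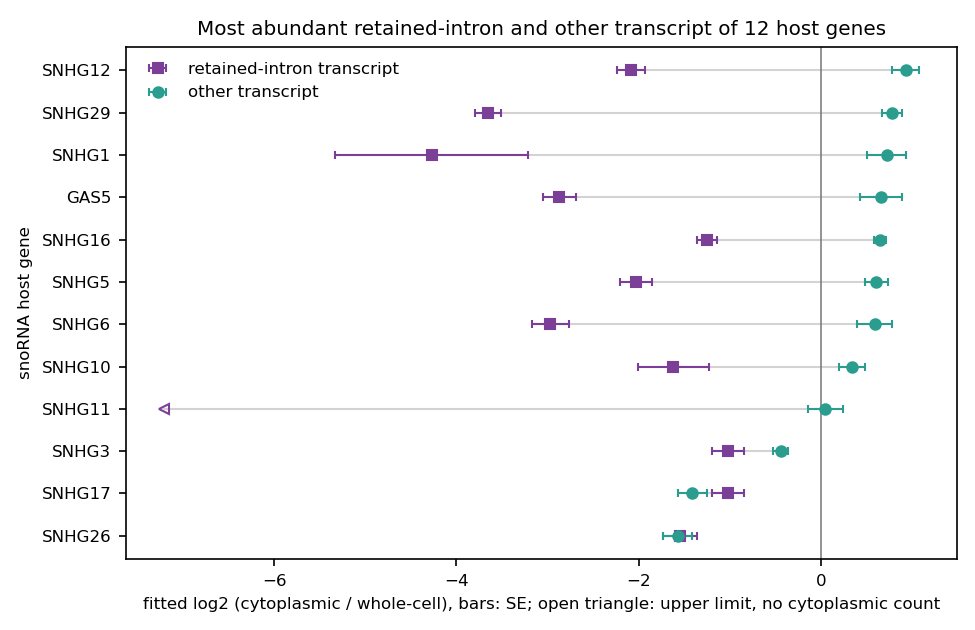
Fitted log2 ratio of cytoplasmic to whole-cell level (x axis) of the most abundant retained-intron transcript (purple squares) and the most abundant other transcript (teal circles) of 12 snoRNA host genes (y axis), with bars of 1 SE, the open triangle standing for a form with no cytoplasmic count, drawn at its upper limit. The retained-intron form lies left of the other form in 10 genes, from -1.02 against -0.44 in SNHG3 to -4.27 against 0.72 in SNHG1 among those with a fitted ratio, and not in SNHG17 and SNHG26. The retained-intron forms of SNHG10 and SNHG11 met the minimum count only through whole cells.

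Summed over these 12 genes, retained-intron forms took 23.9%, 23.7% and 20.2% of the counts in WT-res whole cells and 21.9%, 21.6% and 18.9% in ΔRS-res. In the cytoplasm they took 5.48%, 6.99% and 4.19% and 7.06%, 6.93% and 4.18%. The fractions were far apart, with means of 21.7% ± 1.95 (SD, n = 6) and 5.81% ± 1.38 (SD, n = 6), and the lines overlapped in both. Taken by replicate number, the share in whole cells was lower in ΔRS-res than in WT-res in all 3 pairs, as was that of transcripts with a snoRNA in an exon (34.5% and 31.4%, 34.1% and 31.4%, 29.6% and 26.5%), a difference that was not tested. The summed share follows the most abundant genes. As the mean of the genes' own shares it was 22.6% in whole cells and 10.9% in the cytoplasm. The mean share by gene, whole cells first, was 42.8% and 12.6% in GAS5, 82.2% and 40.2% in SNHG12, 18.5% and 1.48% in SNHG29, 48.9% and 39.0% in SNHG3, 22.9% and 18.1% in SNHG17 and 11.9% and 10.7% in SNHG26. Transcripts with a whole snoRNA in an exon took 31.3% ± 2.95 of the counts of the 27 genes in whole cells and 8.76% ± 2.02 in the cytoplasm (SD, n = 6).

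The annotation also lists 53 snoRNA and scaRNA genes in introns of these hosts, as genes of their own. These entries stand for 49 places, since 8 of them overlap another entry, and for all of the hosts but GAS5, for whose guides it lists 0 genes. SCARNA17 is listed as 2 shorter genes, which lie in an intron of a SNHG22 transcript although the longer RefSeq form does not. Most are shorter than the sequenced inserts and 6 had no count. Of the 34 that could be tested, 0 were higher in the cytoplasm and 32 lower, against 23.7% and 31.3% of all genes, with a median log2 ratio of -3.12. Some of them, such as SNORD27 and SNORD104, met the minimum count of the test only through the whole-cell libraries, where they are high. The number of lower calls is therefore no measure of how many guides are lower. The guides named next had counts in both fractions. SNORA73A, in SNHG3, had 136, 121 and 128 CPM in WT-res whole cells and 101, 91.9 and 96.7 in ΔRS-res, against 16.0, 14.2 and 9.60 and 12.2, 10.4 and 7.11 in the cytoplasm. Its log2 ratio of -3.28 (SE 0.147) was far below that of the host (-0.86). SNORA73B (-3.65), SCARNA13 (-2.96, in SNHG10) and SNORA71A (-3.10, in SNHG17) were alike.

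In SNHG16 and SNHG7, of the 5 hosts called higher in the cytoplasm, the guides that could be tested were lower there. These guides met the minimum count of the test in the cytoplasm as well. The tested guides of SNHG29 and SNHG31, which are SNORD49B, SNORD65 and SNORA70I, met it only through whole cells. No conclusion is drawn from their lower ratios. The listed guide of the remaining host, SNHG5, had a mean count of 0.0. SNORD1C had a log2 ratio of -4.42 (SE 0.314) and its host SNHG16 one of 0.38. In SNHG7 the annotated copies of SNORA17B had -3.03 and -3.14, and the host 0.18. SNORA70I, with a mean count of 6.0, had -3.58 and its host SNHG31 1.89, a contrast that is not used because of its counts. Guide and host lay closer in SNHG20, with -1.18 for SCARNA16 and -0.79 for the gene, and in SNHG22, with -2.99 for SCARNA17 and -2.62 for the gene that overlaps it. Both annotated copies of SNORA17B in SNHG7 cover nearly the same bases, as do some other pairs, and share reads. Reads of a snoRNA gene may also come from unspliced host RNA, which these counts cannot separate.

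**Figure D4:**
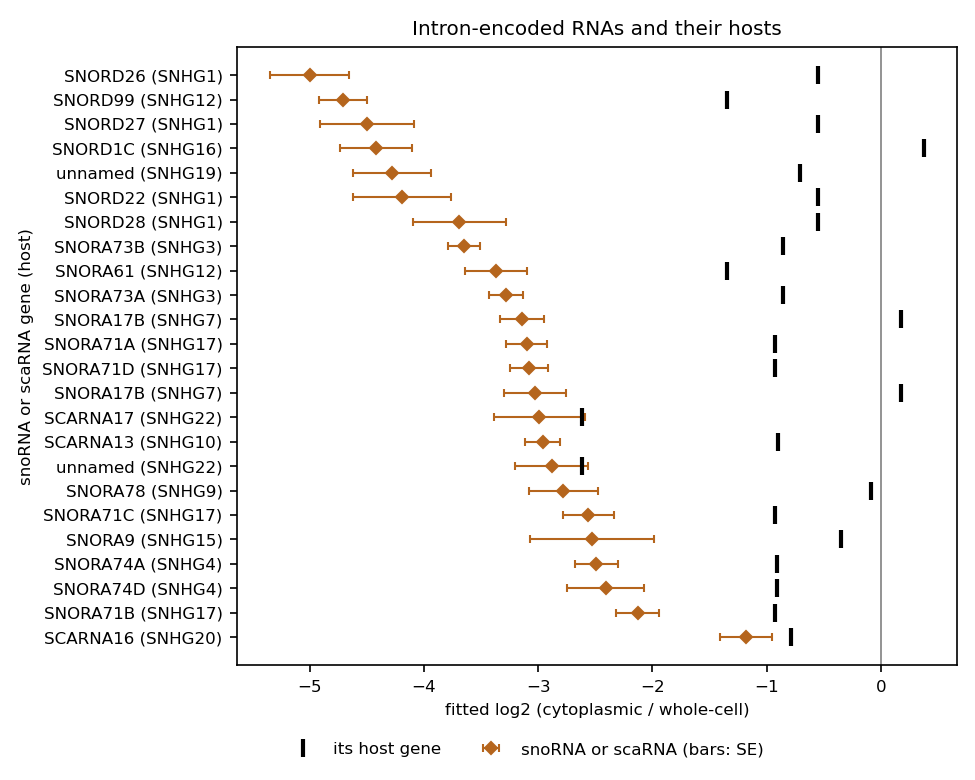
Fitted log2 ratio of cytoplasmic to whole-cell level (x axis) of the 24 intronic snoRNA and scaRNA genes with a mean count of at least 10 (brown diamonds, bars of 1 SE), each with the ratio of its host gene (black bar), by name and host (y axis). All 24 lie below 0 and to the left of their host, from -5.00 for SNORD26 to -1.18 for SCARNA16. The minimum of 10 is a mean over both fractions, and some guides, such as SNORD26 and SNORD99, met it only through whole cells. That all 24 lie below 0 is therefore no measure of how many guides are lower. SNORD27 met the minimum count of the test only through the whole-cell libraries.

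The second question was whether the hosts differed between ΔRS-res and WT-res. In these bulk samples fewer cells with an RNA and less of it per cell cannot be told apart. In whole cells the calls depended on the fit. With all 6 whole-cell libraries and no block, among 27 genes 0 passed at an adjusted p under 0.05 with edgeR, as did 0.0% of all genes in each direction, while 4 had an unadjusted p under 0.05, as did 12.5% of all genes. DESeq2 called 1 of 26 hosts with an adjusted p (SNHG1, lower), against 4.68% of all genes lower and 1.6% higher. Still, 22 of the 27 had a log2 difference below 0, with a median of -0.14 against 0.00 over all genes. By the study's threshold 1 gene was lower (SNHG31) and 0 were higher, against 5.16% and 1.18% of all genes. In 6 genes (SNHG1, SNHG15, SNHG19, SNHG31, SNHG5 and SNHG8) all 3 ΔRS-res libraries were below all WT-res libraries, and in 0 all were above, where 9.5% and 9.51% of all genes showed these patterns. Without the library that goes against its label, 22 of the 27 were again below 0, with a median of -0.16 against -0.01 over all genes and 9 at an unadjusted p under 0.05, against 20.1% of all genes. The ΔRS-res libraries then lay below the other 2 of WT-res in 12 hosts (SNHG1, SNHG12, SNHG15, SNHG19, SNHG20, SNHG26, SNHG3, SNHG31, SNHG4, SNHG5, SNHG7 and SNHG8) and above them in 1 (SNHG30), against 19.2% and 23.2% of all genes.

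The replicate numbers paired the whole-cell libraries, and the block changed the calls. With the replicate as a block 4 hosts were lower in ΔRS-res: SNHG1 (log2 -0.40, adjusted p = 0.0252), GAS5 (-0.34, adjusted p = 0.033), SNHG5 (-0.34, adjusted p = 0.0367) and SNHG31 (-1.74, adjusted p = 0.0238). None was higher with that fit, where 2.78% of all genes were called higher and 5.19% lower. Without the library that goes against its label, 1 host was lower, SNHG1 (log2 -0.41, adjusted p = 0.0357), against 1.18% of all genes lower and 0.886% higher. The other 3 genes called with the block then had -0.21 (GAS5, adjusted p = 0.511), -0.33 (SNHG5, adjusted p = 0.13) and -1.58 (SNHG31, adjusted p = 0.079). Without WT-res whole-cell replicate 1, SNHG31 alone was called (-2.02, adjusted p = 0.0228), against 2.11% of all genes lower and 0.13% higher. With the block and replicates 1 and 2 only, 14 hosts were lower and 0 higher, against 9.76% and 7.82% of all genes, a fit chosen after the values had been seen.

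SNHG1 had the steadiest difference. Its whole-cell levels, given above, were 115.5 to 117.1 CPM in WT-res and 85.7 to 94.8 in ΔRS-res, a log2 difference of -0.40 (SE 0.0695, adjusted p = 0.213). GAS5 and SNHG32 behaved otherwise: replicate 3 was high in both lines, at 253.8 and 222.4 CPM for GAS5 and at 122.5 and 128.4 CPM for SNHG32, and the lines overlapped. The log2 differences were -0.33 (SE 0.168) for GAS5 and -0.02 (SE 0.201) for SNHG32, the latter 0.01 with total-count scaling, and without the library that goes against its label they were -0.21 and 0.14. Replicate 3 exceeded replicates 1 and 2 in both lines in 7 hosts (EPB41L4A-AS1, GAS5, SNHG28, SNHG31, SNHG32, SNHG5 and SNHG6) and was below them in 7 (SNHG12, SNHG17, SNHG20, SNHG26, SNHG3, SNHG4 and SNHG9), against 29.8% and 24.0% of all genes. The part of this difference between passages in the line comparison was not tested beyond the block.

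SNHG31 had the largest difference in whole cells, -1.75 (SE 0.341, adjusted p = 0.213), at levels under 1 CPM, and -1.58 without the library that goes against its label. The 57 genes within 5 Mb of it with a mean count of at least 100 had a median log2 difference of -0.36 in whole cells and of -0.48 in the cytoplasm, so its neighborhood was lower in ΔRS-res as well. Without that library the neighborhood had -0.49 in whole cells. The same median in whole cells was -0.20 around EPB41L4A-AS1 (30 genes), -0.17 around SNHG6 (25) and -0.14 around SNHG5 (39), whose own differences were -0.23, -0.27 and -0.33, and it lay between -0.06 and 0.13 around the others. In the cytoplasm with all libraries the medians around EPB41L4A-AS1, SNHG6 and SNHG5 were -0.06, 0.05 and -0.01. The genes' own differences there were -0.43, -0.36 and -0.50. The part of the neighborhoods in these differences was not tested. For SNHG31 itself the difference in the cytoplasm was -0.36 (SE 0.171).

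**Figure D5:**
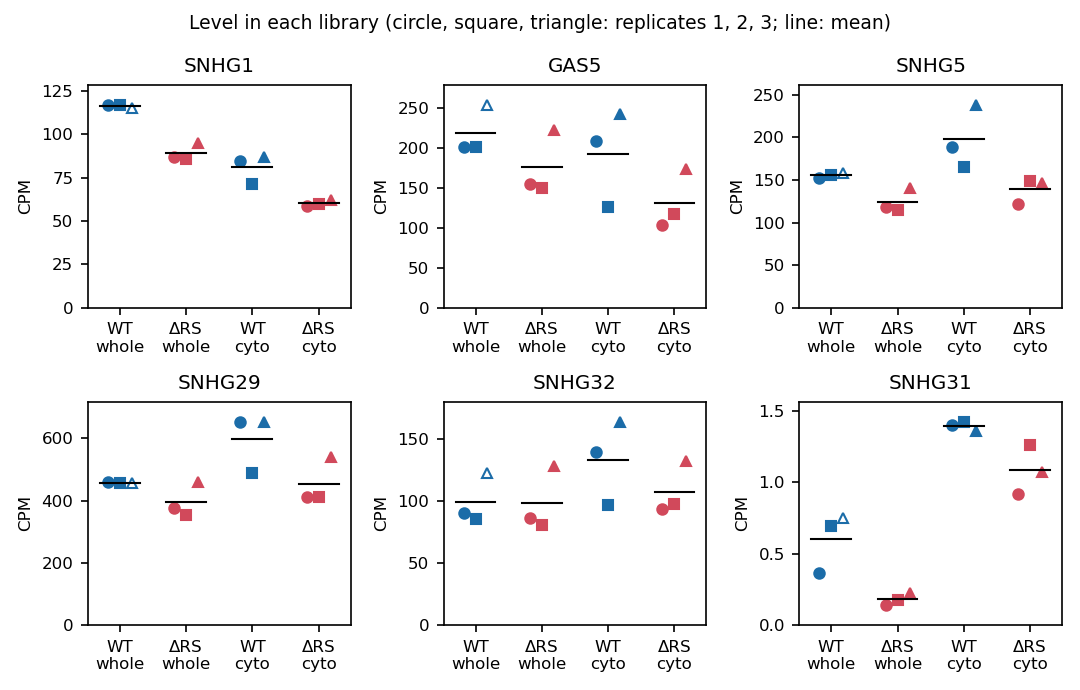
CPM (y axes, from 0) of SNHG1, GAS5, SNHG5, SNHG29, SNHG32 and SNHG31 in each of the 12 libraries, grouped by line and fraction (x axes; blue WT-res, red ΔRS-res), with circles, squares and triangles for replicates 1, 2 and 3, an open triangle for the library that goes against its label, and a line for each group's mean. SNHG1 is lower in every ΔRS-res library than in every WT-res library of the same fraction, and replicate 3 of GAS5 and SNHG32 is high in every group.

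In the cytoplasm the result depended on the libraries used. With all 6 libraries 0 of 27 hosts passed at an adjusted p under 0.05 with edgeR (0.578% of all genes were higher and 0.948% lower), and 7 had an unadjusted p under 0.05, against 10.8% of all genes. DESeq2 called SNHG1 alone of the 27, lower, against 2.43% of all genes lower and 2.05% higher. In 19 hosts the log2 difference was below 0. SNHG1 was nearest to a call, at -0.42 (SE 0.0863, adjusted p = 0.0677). It was lower with the replicate block, where 0.748% of all genes were higher and 1.26% lower, and without WT-res cytoplasmic replicate 2 (log2 -0.50, adjusted p = 0.0277), where 0.444% of all genes were higher and 0.703% lower. In 7 hosts (SNHG1, SNHG15, SNHG25, SNHG31, SNHG4, SNHG5 and SNHG7) the 3 ΔRS-res libraries lay below the 3 of WT-res and in 0 above, against 9.01% and 8.35% of all genes.

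With the 4 libraries the study kept, 14 hosts were called, 10 lower in ΔRS-res and 4 higher, against 11.4% and 10.7% of all genes. The cytoplasmic line contrast in a joint fit of all 12 libraries called 0, and 0.045% of all genes lower and 0.00375% higher. GAS5 was lowest, at 208.8 and 242.6 CPM in WT-res against 103.2 and 116.7 in ΔRS-res, a log2 difference of -1.02 (SE 0.0902, adjusted p = 0.0016). The libraries left out had 126.2 CPM (WT-res 2) and 173.6 CPM (ΔRS-res 3), so with them the lines overlapped and the difference was -0.55 (SE 0.26, adjusted p = 0.52). EPB41L4A-AS1, host of SNORA13, had 37.1 and 40.8 CPM in WT-res against 22.1 and 24.5 (log2 -0.72, SE 0.0752, adjusted p = 0.00246), and 27.3 and 30.9 CPM in the libraries left out, with which the difference was -0.43 (adjusted p = 0.41). In whole cells it had 32.1, 32.2 and 34.6 CPM in WT-res and 25.7, 26.5 and 32.7 in ΔRS-res, which overlap.

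SNHG32 (log2 -0.65, adjusted p = 0.00377), SNHG29 (-0.64, adjusted p = 0.000811), SNHG5 (-0.64, adjusted p = 0.0205) and SNHG6 (-0.62, adjusted p = 0.0118) followed. With all 6 libraries they had -0.30, -0.39, -0.50 and -0.36, with adjusted p-values of 0.683, 0.37, 0.193 and 0.517. SNHG6, host of SNORD87, had 44.3 and 52.8 CPM in the WT-res libraries kept and 28.5 and 33.7 in those of ΔRS-res, against 33.7 and 38.9 in the libraries left out and, in whole cells, 34.6, 36.6 and 42.6 in WT-res and 27.6, 27.2 and 40.0 in ΔRS-res. In all 6 of these genes the WT-res library left out was the lowest of its group, and in all but SNHG5 the ΔRS-res library left out was the highest of its group. SNHG1 (-0.51), SNHG4 (-0.32), SNHG7 (-0.19) and SNHG16 (-0.18) were lower and SNHG10 (0.53), SNHG17 (0.28), SNHG12 (0.26) and SNHG20 (0.25) higher. With all 6 libraries the first 4 of these had -0.42, -0.30, -0.16 and -0.10 and the last 4 had 0.23, 0.04, -0.01 and -0.13, so that SNHG12 and SNHG20 turned in direction. By the study's threshold 7 were lower and 1 higher (SNHG10), against 7.86% and 5.21% of all genes. Without ΔRS-res cytoplasmic replicate 1 the count of calls was 7, with 6 lower and 1 higher, against 4.55% and 4.01% of all genes. Without replicate 2 it was 9, with 8 lower and 1 higher, against 4.72% and 3.01%. Each of these fits has a lone ΔRS-res library, which is assumed to vary as the WT-res libraries do.

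At the level of transcripts no host transcript differed between the lines at an adjusted p under 0.05, in either fraction, with edgeR. The share of all transcripts called at that level is not given here, so this result has no background to be set against. By the study's threshold 17 of 393 were lower in ΔRS-res whole cells and 4 higher, against 3.44% and 1.81% of all transcripts, and 22 of 391 were lower and 3 higher in the cytoplasm with all libraries, against 2.13% and 1.93%. The whole-cell count of 21 was 12 without WT-res replicate 2 and 32 without the library that goes against its label, against 3.83% and 6.28% of all transcripts in either direction. The cytoplasmic count of 25 was 15 without WT-res replicate 3, 16 without ΔRS-res replicate 1 and 44 without ΔRS-res replicate 3, against 3.48%, 3.53% and 4.75%. The ratio of cytoplasm to whole cell differed between the lines for 0 of 400 transcripts with edgeR (0.000767% of all transcripts in each direction), and 15 had an unadjusted p under 0.05, as did 4.71% of all transcripts.

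The machinery that makes and removes these RNAs was measured as well. Of 8 genes for the core proteins of snoRNPs, the particles that snoRNAs form, 6 mRNAs were higher in the cytoplasm and 0 lower by edgeR, among them NOP58 (log2 0.83) and FBL (0.47), the methyltransferase of box C/D particles. NOP56 (-0.09) and NOP10 (0.16) did not pass. Of 13 assembly factors 9 were higher and 0 lower, RPAP3 most (1.18). Of 10 nonsense-mediated decay factors 4 were higher and 0 lower, among them UPF3B (0.95) and UPF2 (0.84). Of the 4 genes for intron debranching and trimming, DBR1 (0.18), PARN (0.22) and XRN2 (0.29) were higher and EXOSC10 (0.09) did not pass. Of all genes 23.7% were higher and 31.3% lower in this comparison, and of protein-coding genes with a mean count of at least 10, 38.6% and 25.5%, so the share of decay factors called higher was close to that of protein-coding genes.

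By edgeR none of these genes was called between the lines in whole cells, where 0.0% of all genes were called in each direction. None was called in the cytoplasm with all libraries either, against 0.578% of all genes higher and 0.948% lower. The largest whole-cell values were those of NOP58 (log2 -0.92, adjusted p = 0.213), RPAP3 (-0.86, adjusted p = 0.213) and UPF2 (-0.46, adjusted p = 0.218). Without the library that goes against its label, NOP58 was called (-1.05, adjusted p = 0.0164), while RPAP3 had -0.78 (adjusted p = 0.107) and UPF2 -0.46 (adjusted p = 0.136). That fit called 1.18% of all genes lower and 0.886% higher. In the cytoplasm with all libraries NOP58 had -0.34 (adjusted p = 0.525), RPAP3 0.02, UPF2 -0.04 and UPF3B -0.03. With the 4 libraries the study kept, 1 core protein gene, 3 assembly factors, 3 decay factors and 2 trimming genes were higher, and 0, 1, 1 and 0 were lower, against 10.7% of all genes higher and 11.4% lower.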

How the data were processed

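The authors deposited RSEM expected counts per transcript for 12 RNA-seq libraries, made with nf-core/rnaseq (Trim Galore, STAR, RSEM) on GRCh38 with Ensembl annotation. The versions of Trim Galore, STAR and RSEM and the strand setting are not given in the sources used here. In each library 43.3% to 47.0% of the estimates were fractional. Sums per gene were rounded, and edgeR 4.0.16 (R 4.3.3) gave the main test (quasi-likelihood, TMM, mean count over 2, Benjamini-Hochberg over all features). limma 3.58.1 was loaded by edgeR, and DESeq2 1.42.0 was an alternative. Types and gene and transcript positions came from GENCODE 44, which held 99.83% of the genes, gene starts and the bounds of the snoRNAs shown from RefSeq on GRCh38.p14, and snoRNA sequences from hg38. The test was checked on simulated counts. The table had 0 columns of other samples.

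Host genes were named by symbol and minimum count, and their transcripts as the most abundant of each type. The members and gene lists were chosen with earlier results of these data known. Deviations of whole-cell libraries with the same replicate number correlated between lines (r of 0.457, 0.45 and 0.62), those of cytoplasmic libraries did not in all pairs (-0.32, 0.549 and 0.452). The study's sample sheet gives both fractions of a replicate one cell pellet name, while its methods describe different wells of one passage, and their deviations had r of -0.16, 0.507 and 0.398 in WT-res and 0.416, 0.383 and 0.761 in ΔRS-res. Alternatives were other scalings and filters, the replicate block, the study's threshold and leaving out each library. The values of 1 gene of the lists are not reported here.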

Additional observations from a re-analysis of the deposited data

How the results depend on the processing

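Of the alternatives to the counts and medians, 148 kept the value within its limits and 31 moved it. With the study's threshold as the call rule, 11 host genes were called between fractions over both lines and 11 in WT-res (from 18 and 17), 1 for the difference of the ratio between lines (from 0), 1 between lines in whole cells (from 0) and 8 in the cytoplasm with the study's 4 libraries (from 14). Between lines in whole cells the count was 1 with DESeq2's Wald test, 2 in a joint fit of all libraries, 4 with the replicate block and 14 with the block and replicates 1 and 2, a fit added after seeing the data. For the joint fit in whole cells the share of all genes is not given. In the cytoplasm the count was 0 in the joint fit of all 12 libraries, against 14 with the study's 4, and with all 6 libraries 1 with DESeq2's Wald test, 2 without a filter and 1 with the replicate block. Without a filter 206 of all 38634 genes were higher and 367 lower. No paired analysis was possible for the study's 4 libraries because the lines share only replicate number 1 there. At an adjusted p, 0 transcripts were called between lines in either fraction, from 21 and 25, with the share of all transcripts not given. The median log2 ratio of the host genes was -0.23 with DESeq2 size factors and -0.39 with total counts, where the median of all genes was 0.01 and -0.14. The retained-intron share in the cytoplasm was 10.9% as the mean of the genes' own shares. The ratios of EPB41L4A-AS1 and SNHG21 were 0.05 with DESeq2's size factors and Wald test, and the whole-cell line difference of SNHG32 was 0.01 with total counts. Leaving out 1 library gave 15 to 18 calls between fractions over both lines, 13 to 17 in WT-res, 13 to 15 in ΔRS-res, 0 to 1 for the difference of the ratio, 0 to 1 between lines in whole cells and in the cytoplasm, 7 to 15 in the study's 4 libraries (where each fit has 1 library in 1 line, assumed to vary as those of the other line), 171 to 196 transcripts between fractions, 12 to 32 and 15 to 44 between lines in whole cells and cytoplasm, and a median of -0.34 to -0.24. Of all genes, the fits without 1 library called 0 to 237 higher and 0 to 567 lower between lines in whole cells. In the cytoplasm with all libraries they called 60 to 129 higher and 53 to 237 lower. For the other fits without 1 library the range of the share of all genes or transcripts is not given here. Without 1 library the ratio lay between -0.10 and 0.05 for EPB41L4A-AS1 (above 0 at 0.03, 0.04 and 0.05), between -0.05 and 0.01 for SNHG21 and between -0.20 and 0.00 for SNHG9, and the whole-cell line difference of SNHG32 between -0.26 and 0.14 (above 0 at 0.06, 0.10 and 0.14). The causes were not tested.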
